A study of Mus musculus with 27 samples.

Results

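Integrins are cell-surface receptors made of 1 alpha and 1 beta chain, with which leukocytes hold on to vessel walls, to matrix and to other cells. The results here concern 10 integrin chains of leukocytes in RNA of sorted dural macrophages: the alpha chains Itgal, Itgam, Itgax, Itga4, Itga6 and Itgav and the beta chains Itgb1, Itgb2, Itgb5 and Itgb7. They were chosen by symbol, as the rows of the count table whose Ensembl identifier maps to these names, and they are 10 of the 41388 genes in the table. All 10 were counted in every library, from 68 to 20479 counts, and all 10 are among the 12682 genes that passed the filter on low counts.

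Every mouse in the study was a Rag1 ko mouse of strain B6, which makes no T or B cells of its own, aged 16 to 19 weeks. Mice of the group called no T cells were in steady state, with no transfer, and all others had received T cells 6.5 weeks before. Donor T cells were unselected (total) cells of B6 mice, or came from mice labelled Tbet ko, IFNg ko, IL6Ra ko/IL21R ko, IL-17AF ko or IL22 ko. T-bet is the transcription factor of type 1 helper cells, IFNg is interferon-gamma, and IL6Ra and IL21R are the receptors for interleukin-6 and interleukin-21. Each knockout was in the transferred cells, and the macrophages in all groups carried only the Rag1 deletion. Which surface proteins gated the sort is not stated in the labels, so whether CD11b, the product of Itgam, took part in it is not known. The labels do not say whether each library came from a separate mouse, and the names of the 2 Tbet ko columns in the table share a number, so p-values refer to the spread among libraries, and this may be technical.

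There were 27 libraries: 6 from mice with no T cells, 5 with total T cells, 2 each with Tbet ko, IFNg ko and IL17AF ko T cells, 7 with IL6Ra/IL21R ko T cells and 3 with IL22 ko T cells. A name such as F1 or M1 gives the sex and counts the libraries of a group, and each library held between 6902602 and 19966749 counts. By their ribosomal protein transcripts they fell into 3 sets. Set A is made up of 4 no T-cell libraries and 3 total T-cell libraries. In set B are the other 2 of either control group, 6 of the IL6Ra/IL21R ko group and all 3 of the IL22 ko group. The Tbet, IFNg and IL17AF ko groups form set C, together with the IL6Ra/IL21R ko library M4. For the 3 knockout groups of set C, a difference from either control group cannot be told apart from a difference between sets. Markers of macrophages were high in all 27 libraries, with a sum over 8 genes of 18660 to 25720 CPM (read counts scaled to a common library size), and all 8 were present in every group. In RNA from a bulk sort, more or fewer cells of a type and more or less RNA per cell cannot be told apart.

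The chains fall into families by the beta chain. Itgb2 (beta 2, CD18) occurs only on leukocytes and pairs with Itgal to form LFA-1, which binds ICAMs on other cells, with Itgam to form Mac-1, a receptor for ICAM-1, fibrinogen and the complement fragment iC3b, and with Itgax to form the related complement receptor CD11c/CD18. Itga4 pairs with Itgb1 to form VLA-4, a receptor for VCAM-1 and fibronectin, and with Itgb7 to form the gut-homing receptor for MAdCAM-1. Itga6 with Itgb1 binds laminin, and Itgav with Itgb5 binds vitronectin and helps phagocytes to hold dying cells. An integrin reaches the surface only as a pair, so transcript levels of single chains do not give the level of a receptor.

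The genes lie on 6 chromosomes of GRCm38 (GENCODE M21). Itgal (chr7:127296260-127335138, + strand), Itgam (chr7:128062640-128118491, + strand) and Itgax (chr7:128129547-128150657, + strand) stand in the same orientation on chromosome 7. Itga6 (chr2:71745616-71858416, + strand), Itga4 (chr2:79255426-79333123, + strand) and Itgav (chr2:83724397-83806916, + strand) lie on chromosome 2. The beta chains are spread out, with Itgb1 at chr8:128685654-128733200 (+ strand), Itgb2 at chr10:77530252-77565708 (+ strand), Itgb5 at chr16:33829665-33949338 (+ strand) and Itgb7 at chr15:102215995-102231944 (- strand). The annotated gene Gm49368 shares 68.67% of the exonic bases of Itgam on the same strand, so the Itgam level is uncertain to the extent that shared reads were dropped. The opposite-strand genes Cerkl, with 0 to 24 counts in a library, and Gm13684, with 0 to 52, overlap 8.04% of Itga4 and 5.9% of Itgav exons. Reads from overlapping genes on opposite strands could not be told apart, since the library kit was unstranded.

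Upstream sequence is shown for 3 members whose levels moved in different ways with total T cells: Itgax and Itgb7, which rose, and Itgb5, which fell. Each is the 250 bases before the gene's start in RefSeq (GRCm38.p6), read 5′ to 3′ on the gene's strand. Capitals mark matches on either strand to TGANTCA, the AP-1 motif, in Itgax, to TGNGGT, the RUNX motif, in Itgb7, and to GGGCGG, the GC box, in Itgb5.
Itgax, chr7:128129300-128129549, + strand: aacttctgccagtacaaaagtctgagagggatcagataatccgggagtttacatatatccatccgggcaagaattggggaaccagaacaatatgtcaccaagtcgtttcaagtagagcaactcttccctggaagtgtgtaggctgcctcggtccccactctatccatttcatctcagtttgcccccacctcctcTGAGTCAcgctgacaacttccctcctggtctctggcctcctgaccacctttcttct
Itgb7, chr15:102231936-102232185, - strand: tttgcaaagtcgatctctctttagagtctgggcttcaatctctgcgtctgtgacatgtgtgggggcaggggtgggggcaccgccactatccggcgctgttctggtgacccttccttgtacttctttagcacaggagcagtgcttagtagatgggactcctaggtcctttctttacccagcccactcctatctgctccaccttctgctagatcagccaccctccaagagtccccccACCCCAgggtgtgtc
Itgb5, chr16:33829415-33829664, + strand: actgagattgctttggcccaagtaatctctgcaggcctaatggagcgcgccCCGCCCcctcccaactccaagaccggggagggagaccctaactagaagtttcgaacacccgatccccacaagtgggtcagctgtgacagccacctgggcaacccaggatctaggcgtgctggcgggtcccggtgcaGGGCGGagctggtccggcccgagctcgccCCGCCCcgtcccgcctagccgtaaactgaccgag
The RefSeq table had such a sequence for 7 of the 10 members (Itgam, Itgax, Itga4, Itgav, Itgb1, Itgb5 and Itgb7). The Itgax sequence holds 1 AP-1 match, TGAGTCA, which begins 56 bases before the start, and of the 7 only Itgax had this motif, against 6.7% of 32851 promoters. The RUNX motif was found in 3 of 7 (Itga4, Itgb1 and Itgb7), against 40.1% of all, and the GC box in 4 of 7 (Itga4, Itgam, Itgb1 and Itgb5), against 32.7%. Itgb5 held 3 GC boxes and was 65.2% G and C, where Itgb7 was 56.0% and the median promoter 52.4%. The core GAGGAA of PU.1 sites was found in Itgam, Itgav and Itgb1 (23.3% of all promoters), the interferon regulatory factor pair GAAANNGAA in Itgav (7.1%), and TTCNNNGAA, the STAT motif, and TTGCNNAA, the C/EBP motif, in none of the 7 (7.0% and 9.6% of all). Each of the 3 printed sequences holds matches to only 1 of the 7 motifs, so none overlap. A match describes letters in the sequence and no binding was measured.

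Compared per kilobase of exon, Itgb5, Itgb2, Itgb1 and Itgam were the abundant members. With no T cells, mean levels were 149 ± 12.8 CPM per kb for Itgb5, 136 ± 8.22 for Itgb2, 126 ± 10.6 for Itgb1 and 92.5 ± 4.16 for Itgam (SD, n = 6). The other 6 chains lay between 3.51 CPM per kb for Itga6 and 14.7 for Itgb7. With total T cells, Itgb2 stood first at 269.7 ± 81.9 CPM per kb (SD, n = 5), Itgb7 reached 81.2 ± 37.4, and Itgb5, first with no T cells, came after Itgb2, Itgam and Itgb1 at 115 ± 27.8. These levels describe the order of the genes within a group, and neighbours such as Itgb1 (127 to 156 with total T cells) and Itgam (122 to 171) overlap. The length of Itgam includes the exons shared with Gm49368, so its level per kb is too low to the extent that shared reads were dropped.

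**Figure D1:**
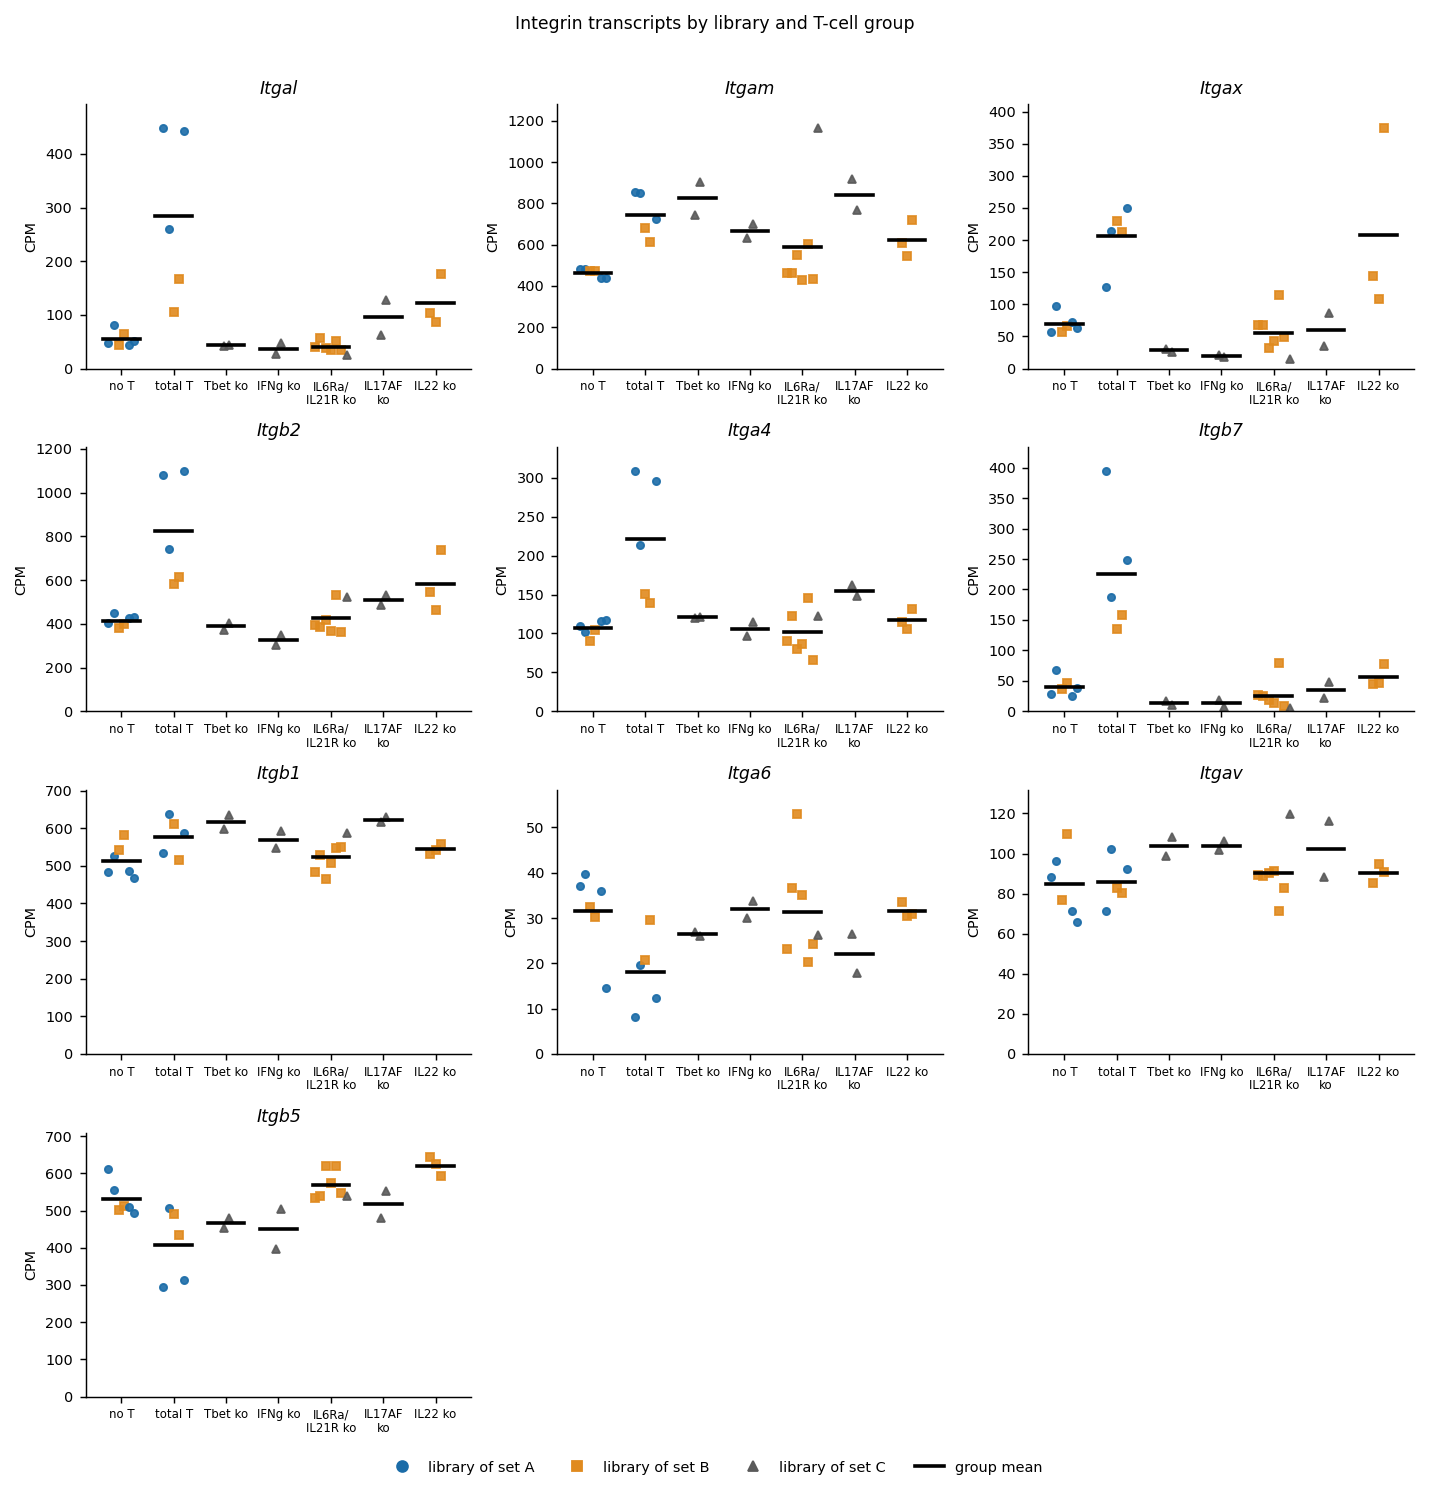
Level of each integrin chain in CPM (TMM-scaled, linear axis from 0) in each of the 27 libraries, by T-cell group, with the library set shown by colour and shape and the group mean by a line. Itgal, Itgax, Itgb2 and Itgb7 stand highest in groups given total T cells or IL22 ko T cells, while Itgb1 and Itgav stay in narrow ranges.

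Mice with total T cells had more RNA of 6 integrin chains in their sorted dural macrophages than mice with no T cells, and less of 2. Itgal and Itgb7 rose the most, 5.11-fold and 5.54-fold, followed by Itgax (3.05-fold), Itga4 (2.12-fold), Itgb2 (2.01-fold) and Itgam (1.62-fold). Itga6 and Itgb5 fell. Itgb1 and Itgav did not pass the test. These 8 of 10 members (6 higher, 2 lower) were called at an adjusted p under 0.05 by edgeR's quasi-likelihood test with Benjamini-Hochberg adjustment over all genes. Over all 12682 genes 21.0% were called, 11.6% higher and 9.36% lower. The median log2 fold change was 0.85 over the 10 members and -0.02 over all genes tested.

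Itgb2 and the 3 members that pair with it, Itgal, Itgam and Itgax, were all higher. Itgb2, the beta chain shared by LFA-1, Mac-1 and CD11c/CD18, was at 381, 415 and 451 CPM (lowest, median, highest) with no T cells and at 1079, 741, 581, 616 and 1098 CPM in the total T-cell libraries F1, F2, F3, F4 and M1. The groups did not overlap, and F1 and M1 stood above the other 3. The log2 fold change of Itgb2 was 1.01 ± 0.14 (SE, edgeR adjusted p = 4.62e-05). How often groups do not overlap was not counted over all genes, here or for the chains and comparisons below. Itgal, the LFA-1 alpha chain, was at 44.1, 49.4 and 82.0 CPM with no T cells and at 447, 259.8, 106, 166 and 443 CPM in F1, F2, F3, F4 and M1. Again F1 and M1 were the highest, and the lowest total T-cell library stood above the highest library with no T cells. The log2 fold change of Itgal was 2.35 ± 0.31 (edgeR adjusted p = 3.23e-05).

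Itgax, the CD11c chain that is much used as a marker of dendritic cells and of activated macrophages, followed another order of libraries. It was at 57.0, 64.7 and 97.5 CPM with no T cells and at 127, 214, 229, 213 and 250.5 CPM in F1, F2, F3, F4 and M1. The groups did not overlap, and here F1 was the lowest of the total T-cell libraries. Its log2 fold change was 1.61 ± 0.35 (edgeR adjusted p = 0.00216). Itgam, the CD11b chain of Mac-1, was at 436, 474 and 483 CPM with no T cells and at 857, 850.2, 678, 612 and 725 CPM with total T cells. Its groups did not overlap either, and its change was the smallest of the 6 that rose, at 0.70 ± 0.19 (edgeR adjusted p = 0.00915).

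Itga4 and Itgb7, the chains of the MAdCAM-1 receptor, both rose. Itga4 was at 90.6, 107 and 117 CPM with no T cells and at 309, 214, 150.4, 139 and 296 CPM in F1, F2, F3, F4 and M1. All 5 total T-cell libraries stood above all 6 with no T cells, F4 and F3 by the least. The log2 fold change of Itga4 was 1.08 ± 0.19 (edgeR adjusted p = 0.000265). Itgb7 was at 25.0, 37.9 and 67.9 CPM with no T cells and at 394, 187, 136, 159 and 248 CPM with total T cells. The lowest of these, F3, was above the highest library with no T cells, and the log2 fold change was 2.47 ± 0.49 (edgeR adjusted p = 0.000882). Itgb1, the other partner of Itga4, was at 468, 505 and 582 CPM with no T cells and at 533, 638, 611, 517 and 587 CPM with total T cells. These ranges overlap, and its value of 0.17 (95% interval 0.00 to 0.34, edgeR adjusted p = 0.146) did not pass.

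Both members that fell overlap between the groups. Itgb5, the vitronectin-receptor beta chain, was at 493, 511 and 612 CPM with no T cells and at 293, 507, 489.7, 434 and 313 CPM in F1, F2, F3, F4 and M1. F1 and M1, the libraries highest in Itgal, Itgb2 and Itga4, were the lowest here. Its log2 fold change was -0.40 ± 0.12 (edgeR adjusted p = 0.0169). Itga6, a laminin-receptor alpha chain, was at 14.5, 34.2 and 39.7 CPM with no T cells and at 8.07, 19.6, 20.8, 29.6 and 12.3 CPM with total T cells. F1 and M1 were again lowest, and the change was -0.88 ± 0.26 (edgeR adjusted p = 0.0186). Without F1, or without M1, both calls were lost and 6 of 10 members were called: without F1 the adjusted p was 0.0519 for Itga6 and 0.0541 for Itgb5, and without M1 it was 0.0551 and 0.0631. Itgav, the alpha partner of Itgb5, was at 66.0, 82.6 and 110.0 CPM with no T cells and at 71.4 to 102 CPM with total T cells, a log2 difference of 0.01 (95% interval -0.26 to 0.29).

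Within set A, with 3 total T-cell libraries against 4, the same 8 of 10 members were called in the same directions, where 16.8% of all genes were called, from 2.75 ± 0.27 for Itgal and 2.73 ± 0.34 for Itgb7 down to -1.31 ± 0.38 for Itga6. Within set B, with 2 against 2, 0 of 10 were called by edgeR, against 0.733% of all genes (DESeq2 was not run within sets). There 5 members had an unadjusted p under 0.05, as did 15.4% of all genes. The 8 had the same sign there, with Itgax at 1.84 ± 0.46 (edgeR adjusted p = 0.0751), Itgb7 at 1.81 ± 0.66 (0.196) and Itgal at 1.31 ± 0.32 (0.0728), while the uncalled Itgav and Itgb1 were at -0.21 and -0.00303. Itgal was the member with the largest difference between the sets, -1.44 ± 0.42 on the log2 scale for set B minus set A (unadjusted p = 0.00428 and adjusted p = 0.319 in an edgeR interaction test). No gene of any kind was called in that test, and 1352 genes had an unadjusted p under 0.05.

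**Figure D2:**
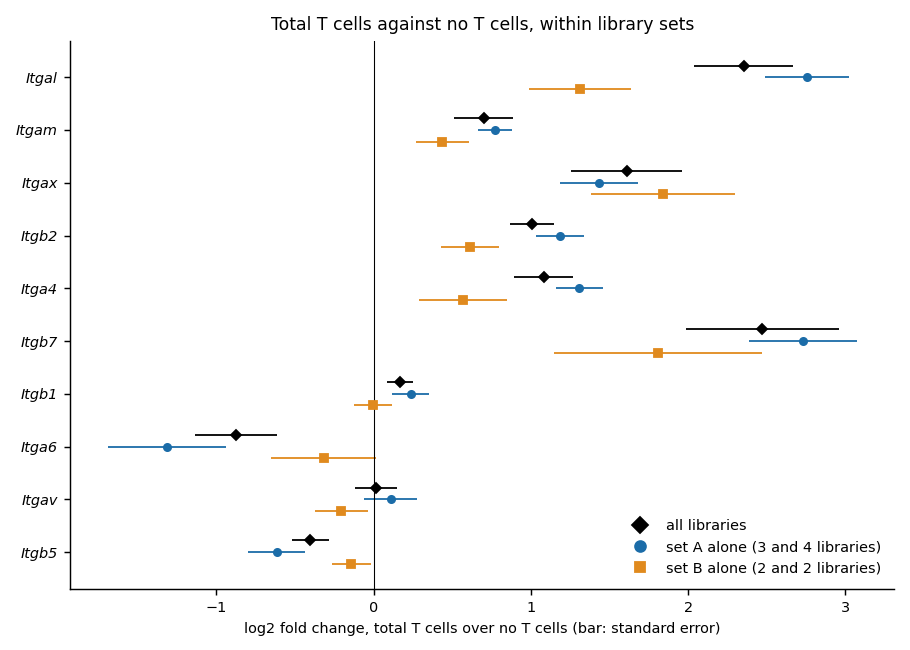
Log2 fold change of each chain between total T cells and no T cells, with its standard error, in all libraries (black), in set A alone (blue) and in set B alone (orange). For the 8 called members the 3 values lie on the same side of 0, and Itgal is at 2.35, 2.75 and 1.31.

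Markers of some other cells also differed between these groups. No tested marker of B cells, neutrophils, mast cells, endothelial cells, platelets or osteoclasts was called. Of 8 markers of monocyte-derived cells, 7 were called higher with total T cells, and their summed level was 657.2 to 1154 CPM with no T cells and 1645 to 7659 CPM with total T cells, highest in F1 (7659) and M1 (3117). Of 6 dendritic cell markers 3 were called higher, with sums of 86.11 to 145.5 and 77.22 to 232.9 CPM, and F1, lowest in Itgax, was at 97.08. Fibroblast markers went the other way, with 2 of 6 called lower and sums of 427.7 to 1459 CPM with no T cells and 243.7 to 399.1 CPM with total T cells. Of 8 macrophage markers, Lyz2 and Fcgr1 were called higher and Csf1r and Mrc1 lower. The part of any of these cells in the integrin levels was not tested. T cells, which carry Itgal, Itga4, Itgb2 and Itgb7 themselves, were scarcely seen by their own markers: the 8 T-cell markers summed to 1.269 to 16.28 CPM with total T cells and to at most 5.613 CPM in any other library, and none of the 8 passed the filter on low counts. F1 held the 16.28. The 6 higher chains were also called without F1. The median sum of these markers was 2.93 CPM with total T cells and 0.7362 CPM with no T cells. The part of T cells in the levels of F1 or of any other library was not tested. Neutrophil markers (6 genes, with Ly6g at 0 in all total T-cell libraries) summed to 0 to 1804 CPM with no T cells and 8.02 to 227.8 with total T cells.

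With T cells that lacked the IL-6 and IL-21 receptors, 5 of the 6 chains that were higher with total T cells stood lower, and both that had fallen stood higher. Itgb7 was at 0.109 and Itgal at 0.138 of their total T-cell level, Itgax at 0.251, Itga4 at 0.436 and Itgb2 at 0.488, while Itga6 was 1.95-fold and Itgb5 1.44-fold higher. These are 7 of 10 members called against total T cells (5 lower, 2 higher), where 28.1% of all genes were called, 15.0% lower and 13.1% higher. The median over the 10 members was -0.73 on the log2 scale and 0.03 over all genes. This comparison and the one above share the 5 total T-cell libraries, so the opposite signs are not independent of each other.

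Itgal was at 25.9, 37.8 and 56.4 CPM (lowest, median, highest of 7) with IL6Ra/IL21R ko T cells. All 7 were below the lowest total T-cell library at 106, a change of -2.86 ± 0.31 (SE, edgeR adjusted p = 2.69e-06). Itgb7 was at 5.25, 17.9 and 79.5 CPM, a change of -3.20 ± 0.49 (edgeR adjusted p = 4.56e-05), and its highest library, M2, stood apart from the next at 26.5. Itgax was at 15.4, 48.4 and 115 CPM, with M2 again highest, all below the total T-cell range, and changed by -1.99 ± 0.35 (edgeR adjusted p = 0.00016). The beta chain Itgb2 was at 360.4, 396 and 531 CPM and changed by -1.04 ± 0.14 (edgeR adjusted p = 1.4e-05). These 4 chains did not overlap with the total T-cell group, and how often this holds over all genes was not counted. Itga4, at 65.4, 89.8 and 145 CPM, overlapped it by 1 library on each side and changed by -1.20 ± 0.18 (edgeR adjusted p = 4.57e-05).

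On the other side, Itgb5 was at 533, 547 and 619.8 CPM, above every total T-cell library, a change of 0.53 ± 0.12 (edgeR adjusted p = 0.00179). Itga6 was at 20.4, 26.3 and 53.0 CPM, overlapped the total T-cell range, and changed by 0.96 ± 0.26 (edgeR adjusted p = 0.00785). Itgam was at 431, 465 and 1163 CPM. The highest of these is M4, the only library of the group in set C. Its value of -0.42 ± 0.19 did not pass (edgeR adjusted p = 0.107), and without M4 the number of members called was 8. Itgb1 (466 to 588 CPM) and Itgav (71.2 to 119.8 CPM) did not pass, at -0.15 and 0.11.

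Within set B, 6 IL6Ra/IL21R ko libraries against 2 with total T cells, Itgal (-1.77 ± 0.26), Itgax (-2.18 ± 0.37), Itgb2 (-0.65 ± 0.16) and Itgb7 (-2.71 ± 0.54) were called by edgeR, with adjusted p from 0.0017 to 0.0229. These are 4 of 10 members, where 6.58% of all genes were called, and 7 members had an unadjusted p under 0.05, as did 21.1% of all genes. Itga4 there was at -0.60 (edgeR adjusted p = 0.153), Itga6 at 0.52 and Itgb5 at 0.31. Monocyte-derived cell markers, 7 of 8 of them lower, summed to 275.4 to 1001 CPM in the IL6Ra/IL21R ko group. Macrophage markers were called higher for 5 of 8 and lower for 1, Lyz2. All 6 fibroblast markers were called higher, at 363.3 to 3535 CPM in sum against 243.7 to 399.1 with total T cells. All 4 neutrophil markers tested were called lower, at 0 to 2.231 CPM in sum against 8.02 to 227.8. Of 6 dendritic cell markers 3 were called lower and 1 higher, with sums of 82.67 to 131.2 CPM. The part of any of these in the integrin values was not tested.

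Against mice with no T cells, 0 of 10 members were called for the IL6Ra/IL21R ko group by edgeR (0 by DESeq2), with 1.16% of all genes called. At an unadjusted p under 0.05 it was 0 members and 10.8% of all genes. The values ran from -0.73 for Itgb7 (95% interval -1.67 to 0.21) to 0.28 for Itgam (-0.08 to 0.65), and for Itgb2 the difference was -0.03 (-0.30 to 0.24). The interval for Itgal, -1.10 to 0.09, leaves room for a level less than its no T-cell level. A missed threshold does not show that the groups are alike.

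**Figure D3:**
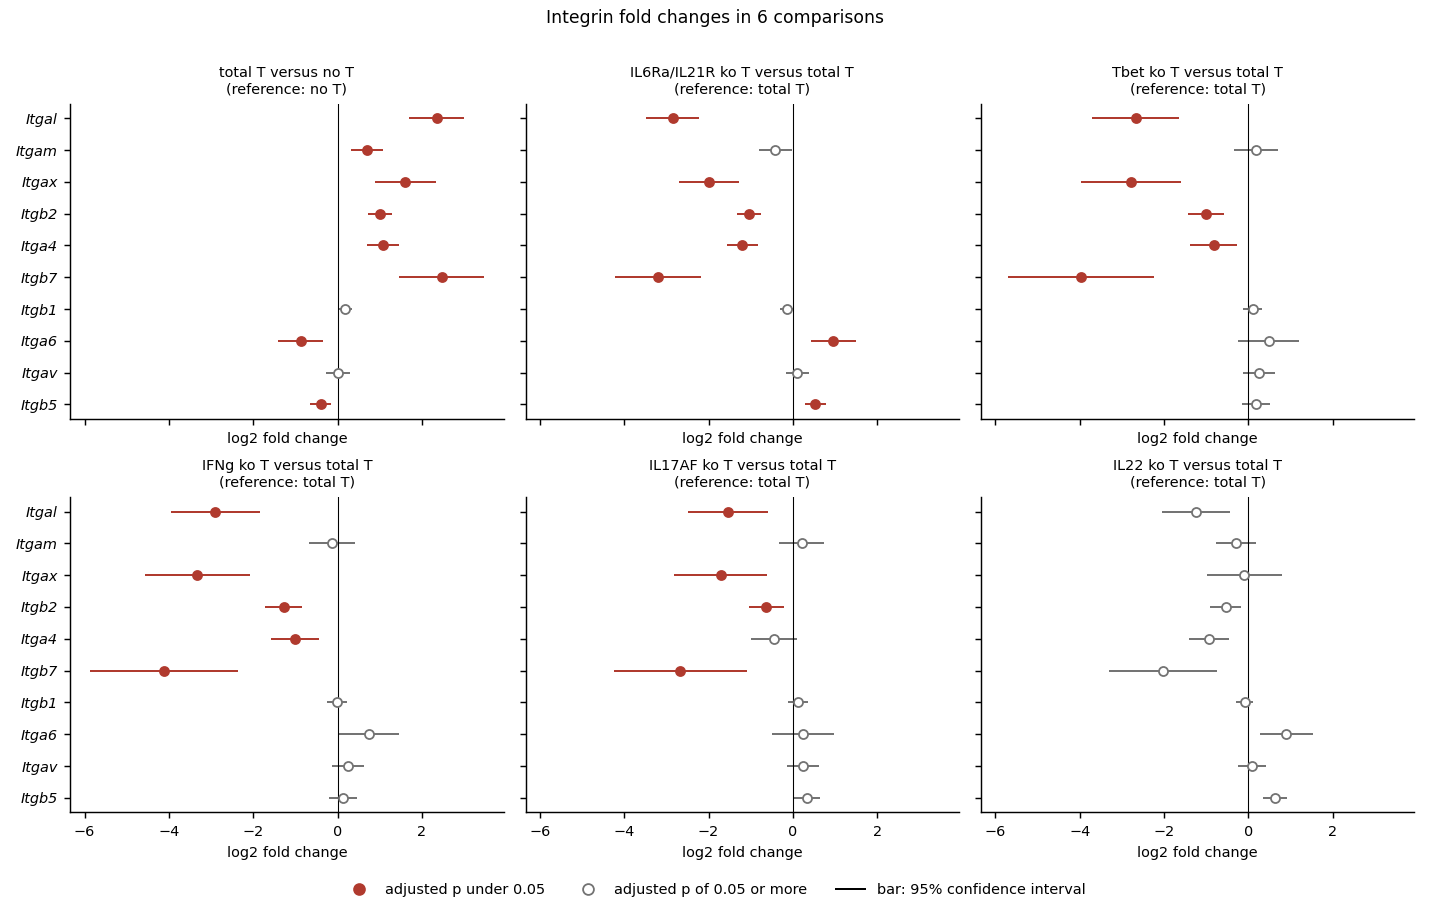
Log2 fold change of each chain with its 95% confidence interval in 6 comparisons, the first against no T cells and the other 5 against the same total T-cell libraries. Filled points passed an edgeR adjusted p of 0.05. Itgal, Itgax, Itgb2 and Itgb7 are filled in the first 5 panels, and no point is filled for IL22 ko T cells.

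With IL22 ko T cells Itgal, Itgax and Itgb2 took middle or high levels. Itgax was at 144, 108 and 374 CPM in F1, F2 and M1, which spans the total T-cell range of 127 to 250.5. Itgal was at 103, 87.6 and 176 CPM, above all libraries with no T cells and partly within the total T-cell range, and Itgb2 was at 545, 462 and 738 CPM. M1 was the highest of the 3 for Itgal, Itgax, Itgb2 and Itgb7. Itgb7, at 45.4, 46.2 and 77.6 CPM, and Itga4, at 115, 106 and 132 CPM, lay below every total T-cell library. Both overlapped the libraries with no T cells, at 25.0 to 67.9 CPM for Itgb7 and 90.6 to 117 CPM for Itga4. Itgb5, at 645, 624 and 593 CPM, lay above every total T-cell library.

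Against total T cells, 0 of 10 members were called for the IL22 ko group by edgeR, against 0.0867% of all genes. At an unadjusted p under 0.05 it was 6 members and 17.3% of all genes. DESeq2 called 5 members (Itgal, Itga4, Itgb2, Itgb5 and Itgb7) and 5.84% of all genes. The edgeR values were 0.63 ± 0.14 for Itgb5 (adjusted p = 0.0506), -0.94 ± 0.23 for Itga4 (0.0573), -2.02 ± 0.62 for Itgb7 (0.0858), -1.24 ± 0.39 for Itgal (0.0888) and -0.54 ± 0.17 for Itgb2 (0.0973). Itgax was at -0.09, with a 95% interval from -0.98 to 0.80. In set B, which holds all 3 IL22 ko libraries and 2 with total T cells, 0 members and 0% of all genes were called by edgeR. There 2 members had an unadjusted p under 0.05 (6.78% of all genes), Itgb5 (0.43) and Itgb7 (-1.64), with Itgal at -0.25, Itga4 at -0.33 and Itgb2 at -0.13, each nearer to 0 than over all libraries. Without the total T-cell library F3, or without F4, both of set B, the edgeR count over all libraries was 5. The share of all genes called in these refits is not given here, so that count need not be particular to the integrins. The monocyte-derived cell markers summed to 883.9 to 1275 CPM and the fibroblast markers to 532 to 713.4 CPM with IL22 ko T cells, and their part in these values was not tested.

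Against no T cells, 0 members were called for the IL22 ko group by edgeR (0.00789% of all genes), 3 had an unadjusted p under 0.05 (9.36% of all genes) and DESeq2 called 2, Itgal and Itgax (1.25% of all genes). Itgax was at 1.52 (95% interval 0.69 to 2.34, edgeR adjusted p = 0.141), Itgal at 1.11 (0.39 to 1.83, 0.215) and Itgb2 at 0.47 (0.13 to 0.80, 0.282). For all 3 the groups did not overlap, and neither did they for Itgam (544 to 720 against 436 to 483 CPM). How often this holds over all genes was not counted. Against the IL6Ra/IL21R ko group, 0 members were called by edgeR (0.00789% of all genes), 4 had an unadjusted p under 0.05 (8.59% of all genes) and DESeq2 called 2 (0.718% of all genes). Itgal, at 1.62 ± 0.33, and Itgax, at 1.90 ± 0.38, each had an edgeR adjusted p of 0.0589. Without the IL6Ra/IL21R ko library M2 the count was 3, and without M4 it was 1, with the share of all genes in these refits not given here. In set B alone, which leaves out M4, Itgal (1.52 ± 0.22, edgeR adjusted p = 0.00639) and Itgax (1.71 ± 0.30, 0.0138) were called, where 1.32% of all genes were and 12.6% had an unadjusted p under 0.05. Itgal was higher in 3 of 3 IL22 ko libraries than in all 7 of the IL6Ra/IL21R ko group.

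In the Tbet ko and IFNg ko groups, 2 libraries each, Itgax and Itgb7 stood at the lowest group means of the study. Itgax was at 31.1 and 26.0 CPM with Tbet ko and at 20.9 and 18.5 CPM with IFNg ko T cells. Itgb7 was at 17.2 and 10.9 CPM and at 18.0 and 7.80 CPM. Both chains lay below every total T-cell library and every library with no T cells in both groups. The lowest single library of the study for both was IL6Ra/IL21R ko M4, also of set C, at 15.4 CPM for Itgax and 5.25 for Itgb7. Itgal was at 42.9 and 43.9 CPM with Tbet ko and at 26.5 and 47.8 CPM with IFNg ko T cells, and Itgb2 at 373 and 406 CPM and at 303 and 347 CPM. Itga4, at 120.4 and 121 CPM and at 96.5 and 115 CPM, was likewise below every total T-cell library.

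Against total T cells, the same 5 chains were called lower in each of these groups, and none was called higher. For Tbet ko they are Itgb7 (-3.98 ± 0.84, edgeR adjusted p = 0.00123), Itgax (-2.79 ± 0.58, 0.00106), Itgal (-2.68 ± 0.50, 0.000474), Itgb2 (-1.01 ± 0.21, 0.000959) and Itga4 (-0.82 ± 0.27, 0.0245). Over all genes 29.9% were called, 15.1% lower. For IFNg ko they are Itgb7 (-4.12 ± 0.85, edgeR adjusted p = 0.000767), Itgax (-3.32 ± 0.60, 0.000239), Itgal (-2.90 ± 0.51, 0.000183), Itgb2 (-1.28 ± 0.21, 0.000102) and Itga4 (-1.01 ± 0.27, 0.00604). There 36.8% of all genes were called, 19.4% lower. All of these libraries belong to set C, so knockout and set cannot be told apart. In the same libraries the 8 markers of monocyte-derived cells summed to 280.2 to 383.1 CPM and the 6 fibroblast markers to 3030 to 3600 CPM, where total T cells had at least 1645 and at most 399.1, and their part in these values was not tested. With the set as a term, 0 members were called for Tbet ko (edgeR) and 2 for IFNg ko. That term links set C to the others through the library IL6Ra/IL21R ko M4 alone. The share of all genes called in that fit is not given here.

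With IL17AF ko T cells, Itgal was at 63.1 and 128 CPM, Itgax at 34.4 and 86.0, Itgb7 at 21.3 and 48.8 and Itgb2 at 487 and 531. F2 was higher than F1 in each of these, by more than the distance between the libraries of the Tbet or IFNg ko groups for Itgal and Itgax. All 4 chains were called lower than with total T cells: Itgb7 (-2.67 ± 0.77, edgeR adjusted p = 0.0136), Itgal (-1.54 ± 0.46, 0.0177), Itgax (-1.72 ± 0.54, 0.0215) and Itgb2 (-0.63 ± 0.20, 0.0253). Over all genes 25.1% were called, 12.5% lower. Itga4, at 162 and 148 CPM, did not pass (-0.46, edgeR adjusted p = 0.216). Calls were lost without F1 and also without F2, and the share of all genes called in those fits is not given here. The group then holds 1 library, which is assumed to vary like those of the other groups. The monocyte-derived cell markers summed to 351.5 and 395.7 CPM and the fibroblast markers to 2213 and 3063 CPM in F1 and F2, and their part in these values was not tested. With the set as a term 0 members were called, and Itgax and Itgb7 turned to 0.47 and 0.08. That term links set C to the others through the library IL6Ra/IL21R ko M4 alone. The share of all genes called in that fit is not given here.

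Against no T cells, Itgam stood higher in set C. It was at 746 and 905 CPM with Tbet ko, at 634 and 699 with IFNg ko and at 917 and 768 with IL17AF ko T cells, all above the highest library with no T cells at 483. It was called for Tbet ko (0.88 ± 0.24, edgeR adjusted p = 0.0322; 1 of 10 members, 7.20% of all genes) and for IL17AF ko (0.91 ± 0.24, 0.0302; 1 of 10 members, 5.96% of all genes), and not for IFNg ko (0.57 ± 0.25, 0.123). For IFNg ko, Itgax was called lower (-1.71 ± 0.54, edgeR adjusted p = 0.0377; 1 of 10 members, 13.6% of all genes). The highest Itgam level in the study, 1163 CPM, was in IL6Ra/IL21R ko M4, the set C library of another group. With the set as a term these 3 calls were lost and the signs turned. The values were -0.35 and -0.32 for Itgam with Tbet and IL17AF ko and 0.46 for Itgax with IFNg ko. That term links set C to the others through M4 alone, so these values rest on that library. M4 also held the lowest Itgax level of the study, 15.4 CPM. Each call was also lost without either of the group's 2 libraries, when the spread comes from the other groups alone, and that of Itgax without the no T-cell library F2.

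The 3 groups of set C can be compared with each other without crossing sets. Between Tbet ko and IFNg ko, 0 of 10 members were called by edgeR (0 at an unadjusted p under 0.05, with 3.50% of all genes, and 0 by DESeq2), and 0% of all genes. The values ran from -0.27 for Itga6 to 0.54 for Itgax, whose 95% interval was -0.70 to 1.78. Between IL17AF ko and the mean of these 2 groups, 0 members were called by edgeR (3 at an unadjusted p under 0.05, with 3.86% of all genes, and 0 by DESeq2), and 0.00789% of all genes. The 3 were Itgal (1.25, 95% interval 0.37 to 2.13), Itgax (1.34, 0.32 to 2.36) and Itgb2 (0.52, 0.11 to 0.92), each higher with IL17AF ko T cells. In set C alone the values were 1.23, 1.32 and 0.50.

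Over all 7 groups, 7 of 10 members differed (edgeR test of any difference, 38.3% of all genes): Itgb7, Itgal, Itgb2, Itgax, Itga4, Itgb5 and Itgam. Itga6 (edgeR adjusted p = 0.0652), Itgb1 (0.172) and Itgav (0.631) did not pass. DESeq2's likelihood-ratio test called 9 of 10, Itga6 and Itgb1 among them, where 5678 of 12682 genes were called. In the order of group means, total T cells stood first for Itgal, Itgb2, Itga4 and Itgb7 and last for Itgb5 and Itga6. For Itgax the IL22 ko group was first (209 ± 144 CPM, SD, n = 3) and total T cells second (207 ± 47.2, n = 5), and these overlap. That first rank rests on the library M1, and the mean of the other 2 was 126 CPM. The step from total T cells to the next group, no T cells at 68.9 ± 15.1 (n = 6), had no overlap. For Itgb7 the step from total T cells (225 ± 104) to the IL22 ko group (56.4 ± 18.4) had none, and for Itgal, where total T cells (284 ± 157) were followed by IL22 ko (122 ± 47.2), IL17AF ko (95.6 ± 46.0) and no T cells (55.6 ± 15.0), each neighbouring pair overlapped. For Itgav all neighbours overlapped, from 104 ± 3.04 CPM in the IFNg ko group (n = 2) to 84.7 ± 16.6 with no T cells.

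Between males and females, 0 of 10 members were called by edgeR (2 at an unadjusted p under 0.05, with 7.24% of all genes, and 0 by DESeq2), against 0.0552% of all genes. The 2 were Itgb2, at 0.26 for males minus females, and Itga6, at -0.45, with an edgeR adjusted p of 0.676 and 0.683. A test of whether sex changed the difference between IL6Ra/IL21R ko and no T cells called 0 genes by edgeR (727 at an unadjusted p under 0.05), and among the members Itgb7 had 0.73 ± 1.03 and Itgam 0.56 ± 0.41 for males minus females.

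Ratios of chains within a library do not depend on the scaling of that library. They were taken as log2 ratios of counts, with 0.5 added to each count, and compared by exact two-sided permutation tests, with Benjamini-Hochberg adjustment over 20 tests (4 ratios in 5 comparisons). Itgal to Itgam, the alpha chains of LFA-1 and Mac-1, was -3.10 ± 0.33 (SD, n = 6) with no T cells and -1.58 ± 0.79 (n = 5) with total T cells, higher by 1.51 (exact permutation, adjusted p = 0.0144). The difference was 1.96 within set A (exact permutation, adjusted p = 0.0381 over 4 ratios) and 0.86 within set B, where 2 libraries against 2 cannot pass. With IL6Ra/IL21R ko T cells it was -3.83 ± 0.77 (n = 7), lower by 2.24 than with total T cells (exact permutation, adjusted p = 0.00842) and different by -0.73 from no T cells (exact permutation, adjusted p = 0.0381). The last value rests in part on M4, at -5.49, where the other 6 lay between -3.86 and -3.04, and it was -0.45 without M4 and did not pass then. Within set B alone the IL6Ra/IL21R ko group differed by -1.27 from total T cells, where 6 libraries against 2 cannot pass after adjustment over 20 tests.

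Itgax to Itgam rose by 0.90 with total T cells (exact permutation, adjusted p = 0.0325). Within set A it differed by 0.60 and did not pass (exact permutation, adjusted p = 0.171), and within set B the value was 1.40. Between IL6Ra/IL21R ko and total T cells it differed by -1.66 (exact permutation, adjusted p = 0.0325). In set B the value was -1.54, where 6 libraries against 2 cannot pass after adjustment over 20 tests. Between IL22 ko and no T cells it differed by 0.99 (exact permutation, adjusted p = 0.0397), and by 0.57 without the IL22 ko library M1, when it did not pass. Itgb7 to Itgb1, the alternative beta partners of Itga4, rose by 2.27 with total T cells (exact permutation, adjusted p = 0.00866), from -3.73 ± 0.46 (n = 6) to -1.46 ± 0.66 (n = 5), by 2.57 within set A and by 1.82 within set B. It differed by -3.42 for IL6Ra/IL21R ko (exact permutation, adjusted p = 0.00842) and by -1.85 for IL22 ko (exact permutation, adjusted p = 0.0357), each against total T cells. Itgb5 to Itgb1 fell by 0.58 with total T cells (exact permutation, adjusted p = 0.00866), with -0.84 in set A (exact permutation, adjusted p = 0.0381) and -0.14 in set B. It was higher by 0.65 with IL6Ra/IL21R ko and by 0.72 with IL22 ko T cells than with total T cells (exact permutation, adjusted p = 0.00842 and 0.0357). In set B alone the values were 0.44 and 0.48, where 6 or 3 libraries against 2 cannot pass after that adjustment. The other 8 of the 20 ratio tests did not pass.

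**Figure D4:**
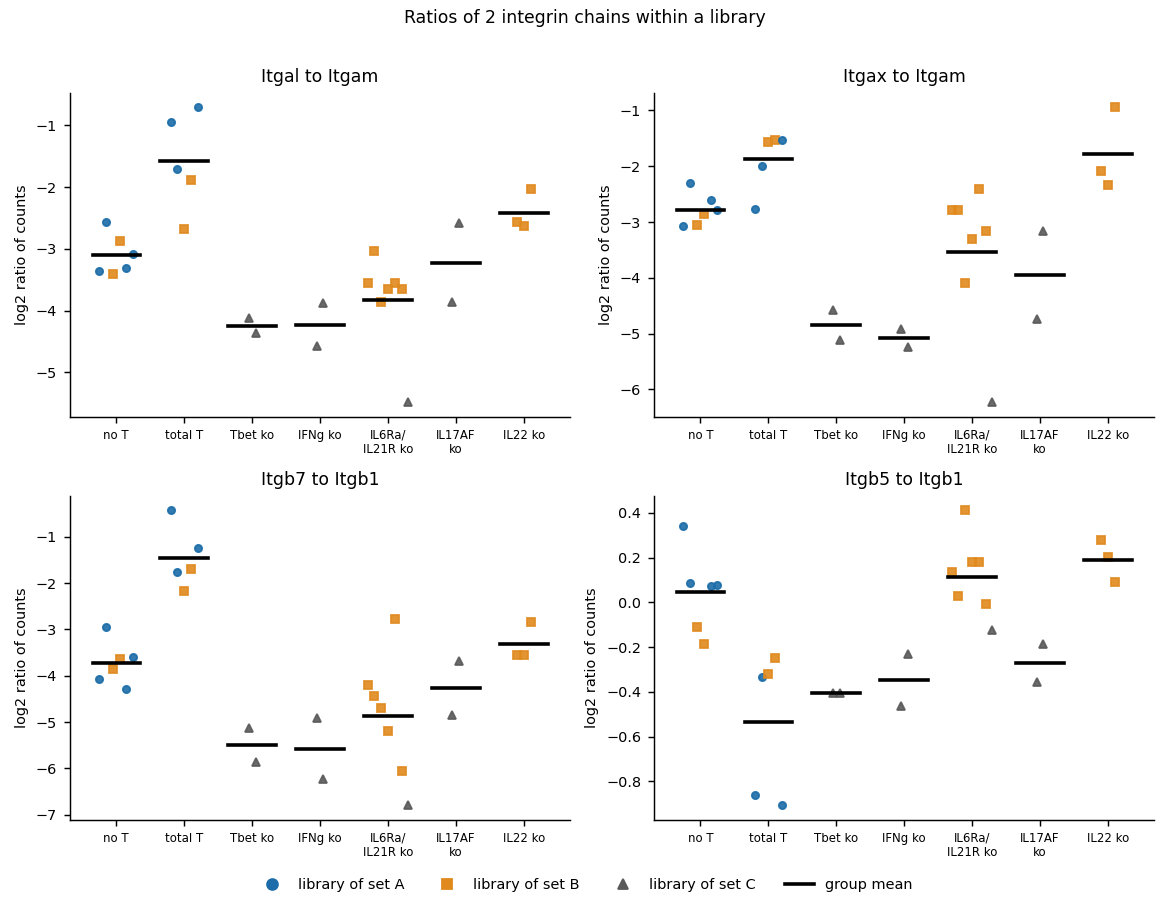
Log2 ratio of counts of 2 chains within each library, by group, with the library set shown by colour and shape and the group mean by a line. The 5 total T-cell libraries lie above the 6 with no T cells for Itgb7 to Itgb1 and below them for Itgb5 to Itgb1.

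Per kilobase of exon, Itgam made up most of the RNA for alpha chains that pair with Itgb2. Its share of the sum of Itgal, Itgam, Itgax and Itgad was 80.3% ± 3.29 (SD, n = 6) with no T cells, 63.4% ± 5.20 (n = 5) with total T cells and 68.5% ± 9.36 (n = 3) with IL22 ko T cells. In the 2 libraries each of the Tbet ko and IFNg ko groups it was 92.6% and 93.1% on average. Itgal took 7.27% ± 1.47 with no T cells and 17.6% ± 7.79 with total T cells, with ranges of 5.98% to 9.66% and 8.08% to 25.7%. Itgax took 12.4% ± 2.07 and 18.9% ± 5.61, and Itgad was under 0.4% in every library. These shares were not tested, since the 2 ratios to Itgam above cover the same counts. To the extent that reads shared with Gm49368 were dropped, the share of Itgam is too low and those of the other chains too high.

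**Figure D5:**
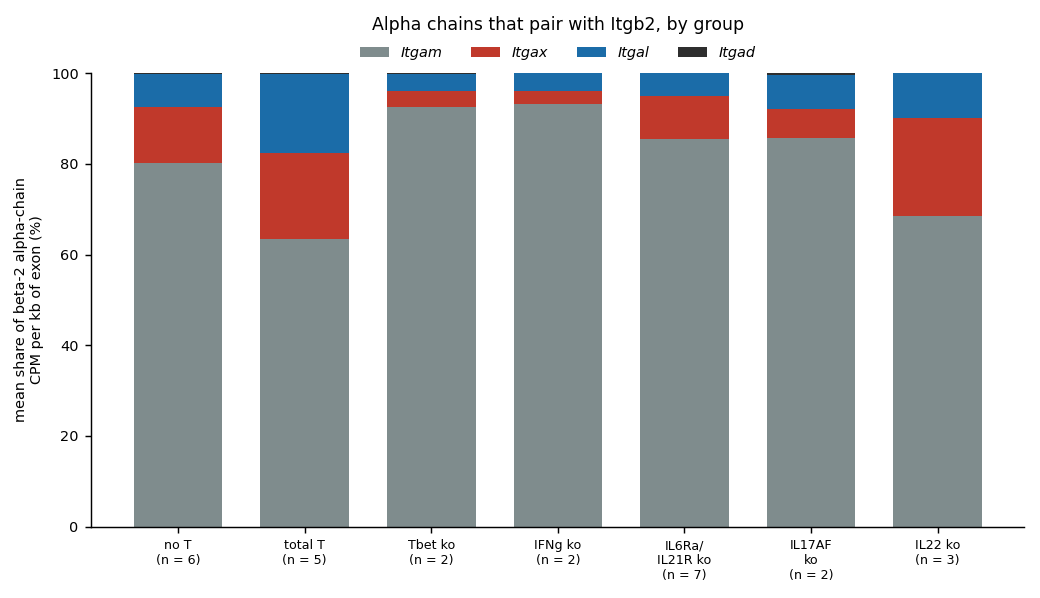
Mean share of each alpha chain in the summed CPM per kb of exon of the 4 alpha chains that pair with Itgb2, by group (bars start at 0 and add to 100%, no error shown). Itgam falls from 80.3% with no T cells to 63.4% with total T cells and stands at 93.1% with IFNg ko T cells.

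Other genes of the integrin system were read from lists. Of 14 other integrin chains tested, 1 was called higher and 1 lower with total T cells (list median -0.18, against -0.02 over all genes), 2 of 14 where 21.0% of all genes were called. Itga5, the alpha chain of the fibronectin receptor, rose by 0.97 ± 0.20 (edgeR adjusted p = 0.00127), from 71.7 ± 23.3 to 143 ± 36.4 CPM, and Itga9 fell by 0.69 (SE 0.24, edgeR adjusted p = 0.0391). With IL6Ra/IL21R ko T cells, 2 were called higher and 2 lower against total T cells (list median 0.17), where 28.1% of all genes were called. Itga5 was at -1.17 ± 0.20 (edgeR adjusted p = 0.000156), Itga9 at 0.92 ± 0.24 and Itgbl1, which is related to integrin beta chains, at 1.01 ± 0.37. Itgae, the CD103 partner of Itgb7, was called at -5.91 ± 1.26, but it had at most 4 counts in an IL6Ra/IL21R ko library and 5 to 79 with total T cells, so the size of that value is not firm.

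Of 36 genes for the inside of the cell and the membrane that activate integrins or join them to actin, 18 were called with total T cells, 13 higher and 5 lower (list median 0.18), against 21.0% of all genes. Among those with the lowest p, these rose: the Src-family kinase Fgr (2.66 ± 0.45, edgeR adjusted p = 0.000214), the focal adhesion protein Zyx (0.78 ± 0.13, 0.000265), Cytip, which binds the cytohesin activators of LFA-1 (1.72 ± 0.30, 0.000348), the adaptor Skap2 (0.50 ± 0.09, 0.000499) and Lims1 (0.55 ± 0.11, 0.000804), which joins integrin-linked kinase to actin. Fgr was at 30.6 ± 11.7 CPM (SD, n = 6) with no T cells and at 194 ± 94.4 (n = 5) with total T cells. With IL6Ra/IL21R ko T cells 20 of the 36 were called against total T cells, 6 higher and 14 lower (list median -0.29), against 28.1% of all genes. There the tetraspanin Cd151, a partner of laminin-binding integrins, rose by 0.98 ± 0.11 (edgeR adjusted p = 3.7e-06). Cytip (-2.40 ± 0.31), Zyx (-0.98 ± 0.13), the urokinase receptor Plaur (-2.87 ± 0.39) and Fgr (-2.82 ± 0.43) were lower, with edgeR adjusted p from 8.64e-06 to 4.52e-05.

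Among 25 ligands of integrins tested, 4 were called higher and 2 lower with total T cells (list median -0.01), 6 of 25 where 21.0% of all genes were called. C3, the source of the iC3b bound by Mac-1 and CD11c/CD18, rose by 3.43 ± 0.52 (edgeR adjusted p = 8.61e-05), from 118 ± 79.2 to 1304 ± 1022 CPM. Thbs1 (2.77 ± 0.51, edgeR adjusted p = 0.000545) and Fn1, fibronectin (2.57 ± 0.52, 0.00119), matrix proteins bound by several of the chains, rose too, as did F11r, a junction protein bound by LFA-1 (0.76 ± 0.26, 0.0438). The laminin chain Lamb2 fell by 1.21 (SE 0.39, edgeR adjusted p = 0.0264), and Mfge8, which bridges dying cells to Itgav receptors, fell by 0.70 (SE 0.25, 0.0467). With IL6Ra/IL21R ko T cells 10 of the 25 were called against total T cells, 4 higher and 6 lower (list median -0.02), against 28.1% of all genes. C3 (-3.79 ± 0.50), Thbs1 (-3.91 ± 0.53) and Fn1 (-3.96 ± 0.57) were lower and the laminin chains Lamb2 (1.28 ± 0.40), Lama2 (2.44 ± 0.79) and Lamb1 (1.96 ± 0.64) were higher. The library M4 was at 117 CPM for Lamb2, 33.9 for Lama2 and 20.4 for Lamb1, where the means of the other 6 were 26.2, 3.60 and 3.56 CPM. Without M4 the values were 0.82 ± 0.25 for Lamb2 (edgeR adjusted p = 0.0169), 1.63 ± 0.65 for Lama2 (0.0636, no longer called) and 1.41 ± 0.52 for Lamb1 (0.0423), and 8 of 25 ligands were called. Laminins are made by fibroblasts, and the 6 fibroblast markers summed to 243.7 to 399.1 CPM with total T cells and to 363.3 to 3535 CPM with IL6Ra/IL21R ko T cells, with all 6 called higher. Their part in the laminin values was not tested. In set B alone, the 3 lists (14, 36 and 25 genes) gave 2, 8 and 3 calls for this comparison, against 6.58% of all genes. For total against no T cells they gave 0 each by edgeR, against 0.733% of all genes.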

How the data were processed

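RNA was sequenced from sorted dural macrophages in 27 libraries, as single-end reads of 75 bases from an unstranded kit, per the labels. The table holds whole-number read counts per Ensembl gene, as deposited by the authors. STAR 2.4.0j, featureCounts, DESeq2 1.20.0 and GRCm38 are named in the submitters' processing notes, and how reads with several matches were treated is not stated there. The table's title calls the values normalized, but they are whole numbers with totals that differ from 6902602 to 19966749, and they were treated as raw counts. Columns were matched to groups and sexes by their names and not to single samples.

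Counts were tested with edgeR 4.0.16 (R 4.3.3), with TMM scaling, group and sex as terms, and all 27 libraries in the fit. Genes with a mean of at least 10 counts, scaled to library totals, were kept (12682 of 41388, of which 40340 have a symbol). The quasi-likelihood test was adjusted by Benjamini-Hochberg over these genes, and genes under 0.05 were called. Levels are edgeR's CPM on TMM-scaled library totals. Whether the libraries of 2 groups overlap was read for the members alone, and the share over all genes was not counted. Library sets came from Ward clustering of 69 ribosomal protein genes above 50 CPM. Alternatives were DESeq2 1.42.0, DESeq2 size factors or library totals as the scaling, other filters, models without sex or with the library set, only the groups compared, females alone, sets alone and leaving out each library. Member counts under most of these are printed without the share of all genes called in the same fit. The interaction tests (T-cell effect by set, and sex by group) and the ligand fit without the IL6Ra/IL21R ko library M4 were chosen after seeing the data. Libraries of the same group differed by 8.97 to 138 in chi-square per degree of freedom over 52 pairs, more than counting noise, and all were counted as samples. The 2 Tbet ko columns, whose names share a number, differed by 11.7, and whether they come from 1 mouse is not stated.

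The members, the gene lists and the markers were chosen with earlier results of these data known. All 10 members are named with their levels; of the other lists, up to 6 called genes of lowest p are named per comparison, except for an item that is not reported here. The edgeR procedure was tested on simulated data.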

Additional observations from a re-analysis of the deposited data

Results flagged for a closer look

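In 5 of 42 groups tested (10 members and 4 ratios in the 3 groups of 5 to 7 libraries) a library stood apart from the rest of its group by Dixon's gap test. Chance flags about 1 in 20 such groups. The Itgax level of the no T-cell library F2 was 97.53 CPM, where the other 5 lay between 57.03 and 72.04.

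The IL6Ra/IL21R ko library M4, the only library of its group in set C, gave 3 of the 5. Its Itgam level was 1163 CPM against 431.2 to 604.1 in the other 6. Its Itgav level was 119.8 CPM against 71.16 to 91.2. Its log2 ratio of Itgal to Itgam was -5.485 against -3.861 to -3.04. Its fibroblast markers summed to 3535 CPM, the highest of its group, and their part in these values was not tested.

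The last was Itgb7 in the IL6Ra/IL21R ko library M2, at 79.54 CPM, where the other 6 lay between 5.245 and 26.51.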

How the results depend on the processing

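No paired analysis was possible because the column names of the count table carry none of the replicate numbers of the sample titles. The cause of each change below was not tested. The share of all genes called differs between settings too and is not given for most counts below. A changed count need therefore not be particular to the integrins. The 8 members called between total and no T cells were 6 with females alone, with the 2 groups compared alone and without the total T-cell library F1 or M1, and 0 by edgeR in set B alone, where the lists of other chains, activators and ligands also had 0. Itgal, Itgax, Itgb2 and Itgb7 were called between IL6Ra/IL21R ko and total T cells under every alternative run. The member count there was 4 in set B alone, where 6.58% of all genes were called. Of 14 other chains, 36 activators and 25 ligands, 2, 8 and 3 were called in that set. A term for the library set left 2 of the other chains and 4 ligands.

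DESeq2 called 5 members for IL22 ko against total T cells, 2 against no T cells and 2 against IL6Ra/IL21R ko. Over all genes it called 5.84%, 1.25% and 0.718%. With no filter on low counts edgeR called 6, 2 and 4 members in the same comparisons. Each of Tbet, IFNg and IL17AF ko against no T cells then had 3, and IL6Ra/IL21R ko against no T cells had 2. IL17AF ko against the mean of Tbet and IFNg ko had 3. For most refits in this paragraph the share of all genes called is not given, so these counts are not read as results about the integrins. With females alone Tbet and IFNg ko each had 3 against no T cells. With only the groups compared, Tbet and IL17AF ko had 3 and 2 against total T cells, Tbet, IFNg and IL17AF ko had 3, 3 and 2 against no T cells, and IL22 against IL6Ra/IL21R ko had 1. With the library set as a term, Tbet, IFNg and IL17AF ko had 0, 2 and 0 by edgeR against total T cells and 0 each against no T cells, and IL22 against IL6Ra/IL21R ko had 2, as in set B alone. The set term links set C to the others through the library IL6Ra/IL21R ko M4 alone. Under it Itgax (0.47) and Itgb7 (0.075) reversed for IL17AF ko against total T cells. Against no T cells, Itgam reversed for Tbet ko (-0.35) and IL17AF ko (-0.32), and Itgax for IFNg ko (0.46).

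With females alone the ratio of Itgal to Itgam differed by 1.25 (total against no T cells), -1.683 (IL6Ra/IL21R ko against total) and -0.4327 (IL6Ra/IL21R ko against no T cells). Itgax to Itgam was 0.8605 and -1.256 for the first 2 of these and reversed to -0.2435 for IL22 ko against total T cells. Itgb7 to Itgb1 was 2.113 and -2.923, and Itgb5 to Itgb1 was -0.4732 and 0.6322. Set A alone gave 0.5978 for Itgax to Itgam between total and no T cells. Set B alone gave, for IL6Ra/IL21R ko against total T cells, -1.268 (Itgal to Itgam), -1.54 (Itgax to Itgam), -2.625 (Itgb7 to Itgb1) and 0.4384 (Itgb5 to Itgb1). It gave -0.4038 for Itgal to Itgam between IL6Ra/IL21R ko and no T cells, -0.2384 (reversed) for Itgax to Itgam between IL22 ko and total T cells, and for Itgb5 to Itgb1 -0.1362 between total and no T cells and 0.3391 between IL22 ko and no T cells.

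Leaving out single libraries moved the member counts from 0 to 5 for IL17AF ko and for IL22 ko against total T cells, from 0 to 3 for IL22 against IL6Ra/IL21R ko, and from 0 to 1 for Tbet, IFNg and IL17AF ko against no T cells. Itgal to Itgam ranged from 0.4996 to 0.7993 for IL22 ko against no T cells, with 0.7961 without the no T-cell library F2, and from -0.8589 to -0.4514 for IL6Ra/IL21R ko against no T cells, passing no more at -0.7907 to -0.4514. Itgax to Itgam ranged from 0.5739 to 1.264 for IL22 ko against no T cells and from -1.882 to -1.211 for IL6Ra/IL21R ko against total T cells, passing no more at -1.689 to -1.574. For IL22 ko against total T cells it ran from -0.3289 to 0.3612, reversed at -0.3289 without the IL22 ko library M1 and at -0.1308 without the total T-cell library F1. Itgb5 to Itgb1 ranged from 0.6316 to 0.7956 and Itgb7 to Itgb1 from -2.086 to -1.593 for IL22 ko against total T cells, the latter passing no more at -2.086 to -1.732. Itgb7 to Itgb1 ranged from -1.496 to -0.8271 for IL6Ra/IL21R ko against no T cells, with -1.496 without the IL6Ra/IL21R ko library M2. No other called member and no other ratio difference changed direction. A knockout group of 2 that loses 1 library takes its spread from the other groups.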
